A study of Homo sapiens with 3 samples.

Results

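Mitotic kinesins are the motor proteins that build the spindle, move and align the chromosomes and split the cell in division. The 10 genes described here are KIF4A, KIF11, KIF14, KIF15, KIF18A, KIF18B, KIF20A, KIF20B, KIF23 and KIF2C. They were chosen by symbol as kinesins of the spindle and of cytokinesis, by a rule that uses no measured value although earlier results of these data were known, and each symbol was found once among the 58333 gene identifiers of the table. All 10 were among the 20858 genes tested. The data are from Cal62, a human thyroid cancer cell line, transfected with a control siRNA (siControl) or with 1 of 2 siRNAs against ADAR1 (siADAR1 #1 and siADAR1 #2). ADAR1 is the enzyme that edits adenosine to inosine in double-stranded RNA. All groups were grown in DMEM with serum and transfected with Lipofectamine RNAimax, and siControl is a commercial non-targeting siRNA. Poly(A)+ RNA of 2 replicates per condition was sequenced, which gives 6 libraries.

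Kinesins walk along microtubules with energy from ATP, and some take microtubule ends apart instead of walking. In a dividing cell, one set pushes the spindle poles apart, another controls microtubule length and chromosome position, and others gather at the spindle midzone and midbody to guide the cleavage furrow and abscission. Their transcripts are known to be made mainly in the late cell cycle, through promoters that often carry a cell cycle homology region (CHR), which binds the DREAM and MuvB complexes, and a CCAAT box, which binds NF-Y. In bulk RNA, fewer cells in division and less kinesin RNA in each dividing cell cannot be told apart.

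The promoters of the 10 kinesins are shown first, because all of them held a CHR-type motif. Sequences are from RefSeq (GRCh38.p14), which gave 1 window for each of the 10 genes, from 250 bases before to 50 bases after the transcript start. Letters searched on both strands were TTTGAA and TTTAAA for the CHR, CCAAT for the CCAAT box and GGCGG for the core of the cell cycle dependent element (CDE). Capitals mark CHR and CCAAT matches, and a match on the other strand reads TTCAAA or ATTGG. Base -1 is the last base before the start and base 1 the first base of the transcript. For 6 genes the nearest CHR match lay before the start, and their last 100 bases before it are given. For the other 4 it reached into the transcribed part, so only 30 bases on the match are given.
KIF4A, chrX:70290004-70290103, plus strand: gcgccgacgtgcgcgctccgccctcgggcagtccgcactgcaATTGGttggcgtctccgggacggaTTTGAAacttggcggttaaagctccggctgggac
KIF11, chr10:92593030-92593129, plus strand: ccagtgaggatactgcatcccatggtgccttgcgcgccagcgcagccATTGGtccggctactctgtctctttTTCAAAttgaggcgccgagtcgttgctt
KIF15, chr3:44761694-44761793, plus strand: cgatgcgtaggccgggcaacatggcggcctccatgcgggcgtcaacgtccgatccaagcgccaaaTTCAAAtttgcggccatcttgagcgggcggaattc
KIF18A, chr11:28108157-28108256, minus strand: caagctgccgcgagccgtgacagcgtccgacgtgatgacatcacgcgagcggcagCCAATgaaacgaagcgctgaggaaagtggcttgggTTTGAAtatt
KIF20A, chr5:138179012-138179111, plus strand: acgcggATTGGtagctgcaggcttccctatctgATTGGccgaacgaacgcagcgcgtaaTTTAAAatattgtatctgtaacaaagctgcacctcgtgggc
KIF23, chr15:69414249-69414348, plus strand: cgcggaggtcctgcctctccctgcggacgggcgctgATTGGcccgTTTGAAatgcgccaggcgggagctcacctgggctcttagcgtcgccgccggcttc
KIF14, chr1:200620733-200620762, minus strand: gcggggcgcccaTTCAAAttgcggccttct
KIF18B, chr17:44947754-44947783, minus strand: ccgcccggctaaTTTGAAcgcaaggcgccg
KIF20B, chr10:89701602-89701631, plus strand: tggccgccattgTTTGAATTTGAAaacggt
KIF2C, chr1:44739822-44739851, plus strand: ttgcgcgcgggaTTTAAActgcggcggttt

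At least 1 of the CHR forms was found in the window of 10 of the 10 kinesins, against 27.9% of 27305 genes with a RefSeq window (a gene with several windows was counted when any of them held the letters). TTTGAA was present in 8 of the 10 (18.2% of all genes) and TTTAAA in 4 (14.5%). KIF20A and KIF2C had the TTTAAA form alone, and KIF14 and KIF23 had both forms. The CCAAT letters were present in 8 of the 10 (39.7% of all genes), with none in the windows of KIF15 and KIF2C. KIF18B, KIF20A and KIF20B had 2 CCAAT matches each. The GGCGG letters were in all 10 windows but also in 61.5% of all genes. Among the lists of related genes, a CHR form was found in 3 of 6 other mitotic kinesins, in 2 of 20 kinesins of transport, cilia and other interphase roles with a window, and in 0 of 18 dynein and dynactin genes with a window. It was also found in 12 of 18 genes that work with the 10 kinesins and in 3 of 4 genes of the list of the chromosomal passenger complex and mitotic kinases. These matches describe letters in the windows only.

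**Figure D1:**
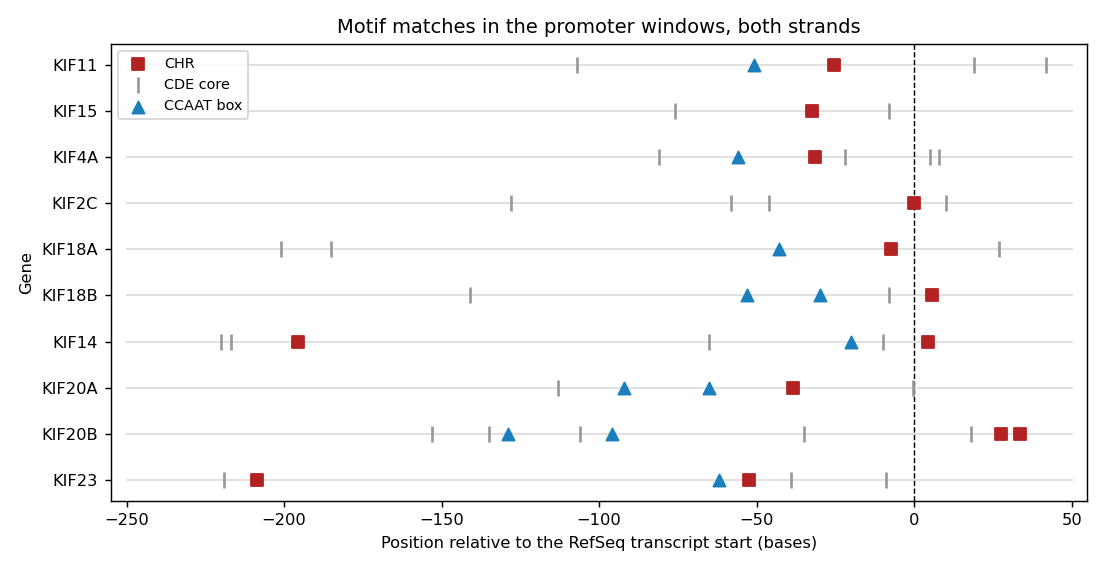
Positions of CHR, CCAAT box and CDE core matches on either strand in the promoter windows of the 10 kinesins, in bases from the RefSeq transcript start (dashed line), with 1 row per gene. Each gene has a CHR match within 55 bases of the start, and KIF15 and KIF2C show no CCAAT box.

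The reads counted on genes totalled 30114840 to 50029763 a library. They were 49173897 and 46219651 for siControl, 50029763 and 38212544 for siADAR1 #1, and 39792163 and 30114840 for siADAR1 #2. Every kinesin had at least 1094 reads in every library. ADAR, the gene for ADAR1, had 10906 and 11701 normalized counts in the siControl libraries, 1328 and 2246 under siADAR1 #1, and 1664 and 2928 under siADAR1 #2. This left 15.8% and 20.3% of the siControl mean (log2FC -2.71 and -2.35, adjusted p-values 0.00295 and 0.00128). Of the thyroid follicular markers, PAX8 was abundant (2542 to 15868 normalized counts), TG, TSHR, SLC5A5 and FOXE1 stayed at or under 249, and NKX2-1 had 0 reads in every library. Epithelial KRT8 and KRT18 were abundant as well. Summed levels were 0 to 15 for 4 leukocyte markers, 35.7 to 62.1 for 3 endothelial markers, and, for 6 fibroblast markers, 5831 to 7175 under siControl, 3365 to 3971 under siADAR1 #1 and 2867 to 3993 under siADAR1 #2, nearly all of it COL1A1. With siADAR1 #2, PAX8 (log2FC -1.99), FOXE1 (-1.21) and KRT18 (-0.85) fell and KRT19 rose (1.18), and COL1A1 (-0.80 and -0.91) and COL1A2 (-1.60 and -1.69) fell with both siRNAs. No other marker tested was called with either siRNA. The part of these in the results was not tested.

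Together the 10 kinesins took 1266 and 1293 of 1000000 reads counted on genes in the siControl libraries, 935 and 985 under siADAR1 #1, and 661 and 765 under siADAR1 #2. The conditions did not overlap in this share. In normalized counts, the sum was 70.7% of siControl with siADAR1 #1 and 49.4% with siADAR1 #2. With siADAR1 #2, 10 of the 10 kinesins were downregulated (limma, log2 fold change or log2FC below -0.5 with a Benjamini-Hochberg adjusted p-value below 0.05), where 15.5% of all genes tested were. With siADAR1 #1, 5 of the 10 were downregulated, namely KIF4A, KIF11, KIF15, KIF20A and KIF20B, where 10.6% of all genes were.  None was upregulated with either siRNA, where 1290 (siADAR1 #1) and 2309 (siADAR1 #2) of the 20858 genes tested were. The median log2FC was -0.52 with siADAR1 #1 and -0.95 with siADAR1 #2, beside medians over all genes of -0.02 and -0.01. Both comparisons use the same siControl libraries. Of the 10 kinesins, 9 had all 4 siADAR1 libraries below both siControl libraries, as had 16.6% of all genes tested, and KIF2C was the exception.

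**Figure D2:**
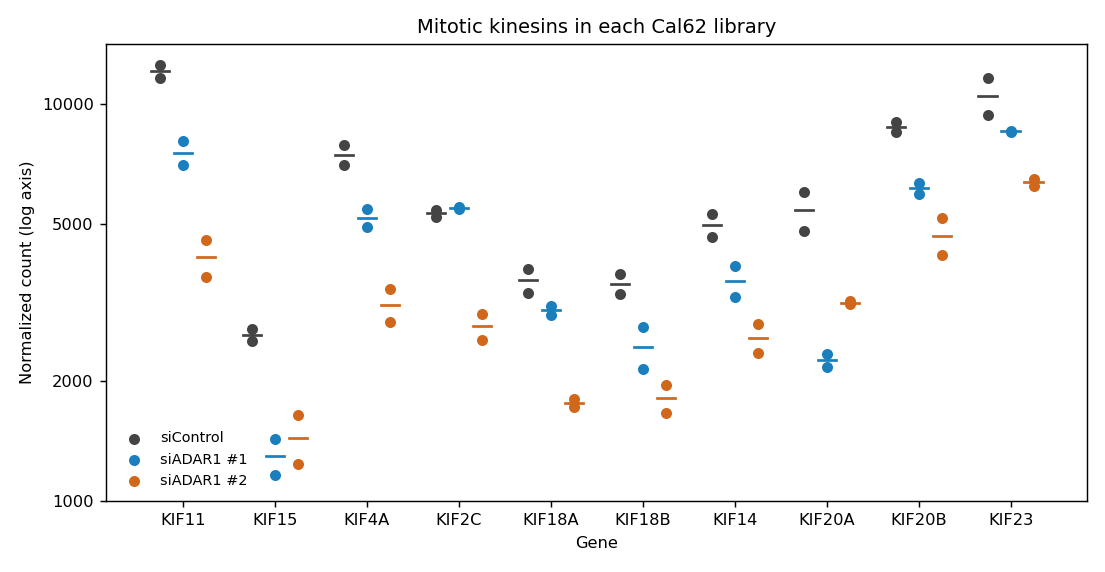
Normalized counts (log axis) of the 10 kinesins, with 1 point per library, 2 libraries for each of siControl, siADAR1 #1 and siADAR1 #2, and a bar at the mean. The siADAR1 #2 points lie below the siControl points for every gene, and the siADAR1 #1 points of KIF2C lie just above them.

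KIF4A and KIF20B lay close to the fold threshold with siADAR1 #1 (log2FC -0.53 and -0.51). The count with siADAR1 #1 also rested on few libraries, as did the calls over all genes. It dropped to 1 when either siControl library was left out and to 2 when siADAR1 #1 replicate 1 was, and only KIF20A was called in all 18 alternatives run for this comparison. With siADAR1 #2, the count was 9 or 10 in all of them, and only KIF15 lost its call, without siControl replicate 1 (adjusted p-value 0.0672) or without siADAR1 #2 replicate 1 (0.0542). When the 4 siADAR1 libraries were treated as 1 group against siControl, 0 of the 10 kinesins and 0% of all genes were called (limma), although 8 of the 10 and 2916 of all genes had an unadjusted p-value under 0.05. Over the 10 kinesins, the adjusted p-values of this limma fit lay between 0.155 and 0.621. Voom on the recovered reads also called 0 of the 10. Averaging both siRNA effects inside the model of 3 conditions called 9 of the 10, all but KIF2C, and 3585 of the 20858 genes tested.

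KIF11 is the motor that slides antiparallel microtubules apart and so separates the spindle poles. It had 12614 and 11695 normalized counts in the siControl libraries, 7028 and 8067 under siADAR1 #1, and 3663 and 4560 under siADAR1 #2. The conditions were fully separated, with siADAR1 #2 lowest. KIF11 fell with siADAR1 #1 (log2FC -0.69, SE 0.14, adjusted p-value 0.0150) and with siADAR1 #2 (log2FC -1.57, SE 0.14, adjusted p-value 0.000388), to 62.1% and 33.8% of siControl. The siRNAs differed by -0.88 on the log2 scale (SE 0.14, adjusted p-value 0.00223). The call with siADAR1 #1 was lost without either siControl library (adjusted p-values 0.103 and 0.0671), without siADAR1 #1 replicate 1 (0.0838) and with eBayes without a trend (0.0793).

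KIF15 works beside KIF11 and helps to keep the spindle bipolar. It had 2715 and 2529 normalized counts in the siControl libraries, 1161 and 1428 under siADAR1 #1, and 1241 and 1643 under siADAR1 #2. Here the siRNAs overlapped with each other, and both lay below siControl. KIF15 fell to 49.4% of siControl with siADAR1 #1 (log2FC -1.02, SE 0.17, adjusted p-value 0.00880) and to 55% with siADAR1 #2 (log2FC -0.87, SE 0.17, adjusted p-value 0.00778). The difference between the siRNAs was 0.15 on the log2 scale, with a 95% interval from -0.25 to 0.55. The call with siADAR1 #1 was lost without siControl replicate 1 (adjusted p-value 0.0785) or replicate 2 (0.0555), and with eBayes without a trend (0.0536).

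KIF4A is a chromokinesin that also limits microtubule length at the midzone together with PRC1. It had 7892 and 7034 normalized counts in the siControl libraries, 4910 and 5444 under siADAR1 #1, and 2824 and 3416 under siADAR1 #2, again without overlap between conditions. It fell by 1.26 on the log2 scale with siADAR1 #2 (SE 0.14, adjusted p-value 0.000702) and by 0.53 with siADAR1 #1 (SE 0.14, adjusted p-value 0.0328), and the difference of -0.73 between the siRNAs was called (adjusted p-value 0.00433). The call with siADAR1 #1 was lost in 8 of 18 alternatives, among them those without siControl replicate 1, siControl replicate 2 or siADAR1 #1 replicate 1 (adjusted p-values 0.175, 0.0863 and 0.155). KIF4B, a near-identical copy of KIF4A that could share its reads, was listed with 10 to 30 normalized counts.

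KIF2C, which takes microtubule ends apart at centromeres and helps to correct wrong attachments, was the kinesin in which the siRNAs differed most. It had 5402 and 5215 normalized counts in the siControl libraries, 5433 and 5502 under siADAR1 #1, and 2551 and 2954 under siADAR1 #2. Both siADAR1 #1 libraries lay just above the siControl libraries, while siADAR1 #2 was far below them, at 51.9% of the siControl mean. The log2FC was 0.04 with siADAR1 #1 (95% interval -0.23 to 0.31, adjusted p-value 0.841) and -0.95 with siADAR1 #2 (SE 0.12, adjusted p-value 0.00111). The difference of -0.99 between the siRNAs was called (SE 0.12, adjusted p-value 0.000666), and it was called in all 18 alternatives, from -1.12 to -0.89.

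KIF18A and KIF18B belong to the same kinesin family. KIF18A damps the movements of chromosomes at the metaphase plate, and KIF18B restrains astral microtubules. KIF18A had 3854 and 3346 normalized counts in the siControl libraries, 3094 and 2951 under siADAR1 #1, and 1722 and 1806 under siADAR1 #2. KIF18A was not called with siADAR1 #1 (log2FC -0.25, 95% interval -0.53 to 0.04, adjusted p-value 0.207), fell with siADAR1 #2 (log2FC -1.02, SE 0.12, adjusted p-value 0.00101) and was lower with siADAR1 #2 than with siADAR1 #1 (difference -0.78, adjusted p-value 0.00226). KIF18B had 3321 and 3742 normalized counts in the siControl libraries, 2152 and 2738 under siADAR1 #1, and 1666 and 1964 under siADAR1 #2, so that its libraries also stood in 3 separate levels. KIF18B fell with siADAR1 #2 (log2FC -0.96, SE 0.16, adjusted p-value 0.00349). With siADAR1 #1 its log2FC was -0.54 (SE 0.16, adjusted p-value 0.0523), just short of the threshold, and 5 of 18 alternatives called it.

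The remaining 4 kinesins act late, at the midzone and midbody. KIF23 is the motor of the centralspindlin complex. It had 11640 and 9428 normalized counts in the siControl libraries, 8573 and 8536 under siADAR1 #1, and 6474 and 6238 under siADAR1 #2. Its changes were the smallest with siADAR1 #2 among the 10 (log2FC -0.72, SE 0.13, adjusted p-value 0.00429), and with siADAR1 #1 it was not called (log2FC -0.29, 95% interval -0.58 to -0.0028, adjusted p-value 0.150). KIF14, which works with citron kinase (CIT) at the midbody, had 5292 and 4637 normalized counts in the siControl libraries, 3263 and 3907 under siADAR1 #1, and 2367 and 2795 under siADAR1 #2. It fell with siADAR1 #2 (log2FC -0.95, SE 0.15, adjusted p-value 0.00264), and with siADAR1 #1 the log2FC was -0.47 (SE 0.15, adjusted p-value 0.0601).

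KIF20A and KIF20B, which are related motors, responded to the siRNAs in opposite order. KIF20A carries the chromosomal passenger complex to the midzone, and KIF20B acts in abscission. KIF20A had 6021 and 4791 normalized counts in the siControl libraries, 2176 and 2343 under siADAR1 #1, and 3131 and 3192 under siADAR1 #2. It was the only one of the 10 with both siADAR1 #1 libraries below both siADAR1 #2 libraries. KIF20A fell to 41.8% of siControl with siADAR1 #1 (log2FC -1.25, SE 0.14, adjusted p-value 0.00292) and to 58.5% with siADAR1 #2 (log2FC -0.76, SE 0.14, adjusted p-value 0.00502). The difference between the siRNAs, 0.49 on the log2 scale, had an adjusted p-value of 0.0264 but stayed under the fold threshold, and with libraries centred on their medians it was 0.36 (adjusted p-value 0.0691). It passed both thresholds after quantile normalization (0.55, adjusted p-value 0.00553) and when siADAR1 #1 replicate 2 was left out (0.54, adjusted p-value 0.0485). KIF20B had 9028 and 8517 normalized counts in the siControl libraries, 5953 and 6342 under siADAR1 #1, and 4177 and 5160 under siADAR1 #2. KIF20B fell with siADAR1 #1 (log2FC -0.51, SE 0.13, adjusted p-value 0.0312), a call that 10 of 18 alternatives did not make, among them each of the fits without a siControl or siADAR1 #1 library (adjusted p-values 0.0562 to 0.153). It fell with siADAR1 #2 as well (log2FC -0.92, SE 0.13, adjusted p-value 0.00186).

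**Figure D3:**
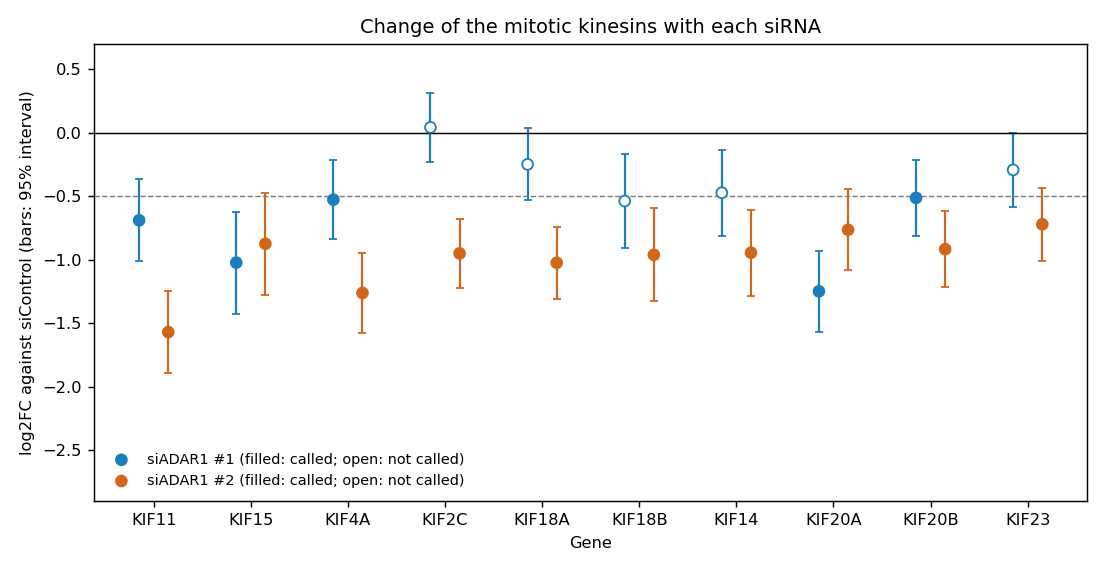
log2FC of each kinesin against siControl with siADAR1 #1 and siADAR1 #2, with 95% intervals from the limma fit and a dashed line at -0.5. All 10 points of siADAR1 #2 are filled (called), 5 points of siADAR1 #1 are open (not called), and KIF20A and KIF15 are the genes whose point is lower with siADAR1 #1.

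Set directly against each other, the siRNAs differed at both thresholds for 4 of the 10 kinesins, KIF2C, KIF11, KIF18A and KIF4A, all lower with siADAR1 #2, where 16.1% of all genes tested were lower. Another 4 passed the adjusted p-value alone, KIF14, KIF20B and KIF23 with lower and KIF20A with higher levels in siADAR1 #2. The adjusted p-value alone was thus passed by 8 of the 10, and by 36.4% of all genes. When each library was centred on its median, every difference between the siRNAs moved by -0.13 and every log2FC with siADAR1 #1 by 0.15, and 8 of the 10 were then lower with siADAR1 #2 at both thresholds, as were 20.5% of all genes. Within libraries, the balance between some of the motors also shifted. There were 66.7 and 56.3 reads of KIF20A per 100 reads of KIF20B in the siControl libraries, 36.6 and 36.9 under siADAR1 #1, and 74.9 and 61.9 under siADAR1 #2. For KIF15 per 100 reads of KIF11, the values were 21.5 and 21.6 in the siControl libraries, 16.5 and 17.7 under siADAR1 #1, and 33.9 and 36 under siADAR1 #2, so siControl lay between the siRNAs. Per 100 reads of KIF11, the KIF2C values were 42.8 and 44.6 without knockdown and higher with both siRNAs. They were 77.3 and 68.2 under siADAR1 #1 and 69.7 and 64.8 under siADAR1 #2. Per 100 reads of KIF18A, KIF2C had 140 and 156 in the siControl libraries and 176 and 186 under siADAR1 #1. Under siADAR1 #2 it had 148 and 164, which overlapped with siControl. The ratio of KIF18A to KIF18B overlapped between siControl and each siRNA. These ratios are of reads not divided by gene length, and they were not tested.

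**Figure D4:**
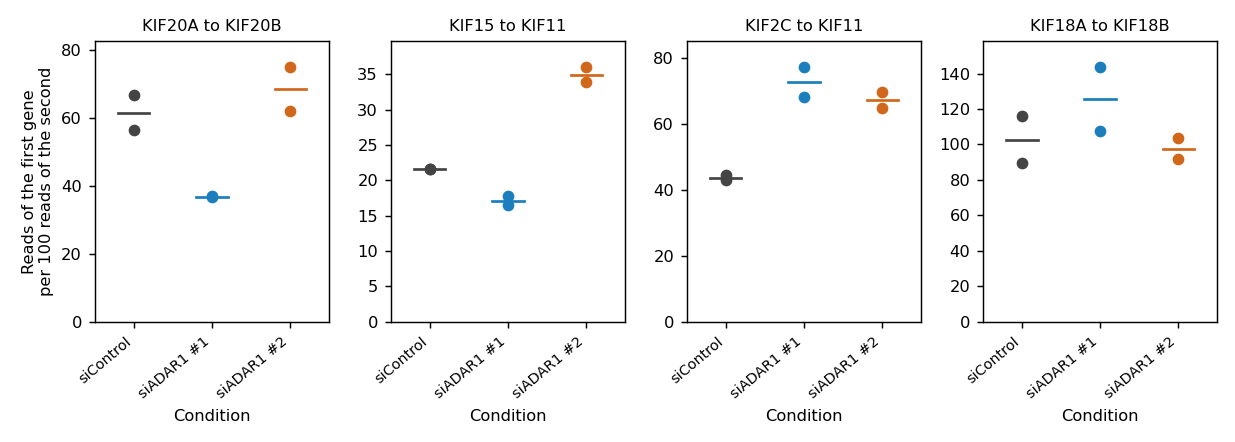
Reads of 1 kinesin per 100 reads of another in each library (points) with the mean of the 2 libraries (bar), for 4 pairs. KIF20A to KIF20B is lowest in siADAR1 #1 and KIF15 to KIF11 is highest in siADAR1 #2.

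Levels of different genes were compared as normalized counts per kilobase of annotated exon. The length joins all exons annotated for a gene, whether or not the cells use them. The order of the genes can depend on this choice, and other lengths were not tried. In siControl, KIF11 was highest (2284 ± 122, SD, n = 2), followed by KIF4A (1632 ± 133), KIF23, KIF2C, KIF20A and KIF20B (1277 ± 52.6). From KIF4A to KIF20B each overlapped with the next in the order. A lower group held KIF18A (797 ± 79.6), KIF18B and KIF14, each again overlapping with its neighbour, and KIF15 was lowest (496 ± 24.9). In siADAR1 #1 the first places were held by KIF2C (1500 ± 13.3) and KIF11 (1418 ± 138), which overlapped, and KIF20A dropped to the seventh place. In siADAR1 #2 the order began with KIF23 (967 ± 25.3) and KIF20A (821 ± 11.2), and KIF20A overlapped with KIF11 (772 ± 119). KIF15 was lowest in every condition.

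Over the 6 libraries, the log2 values of the 10 kinesins had a median Pearson r of 0.88 in 45 pairs. The highest was 0.999 for KIF4A and KIF11, and the lowest was 0.10 for KIF20A and KIF2C. The points are 3 conditions of 2 libraries each, so these values describe how the conditions are ordered. KIF20B, KIF14, KIF11 and KIF4A were closest to the mean standardized profile of the 10 (r from 0.99 to 0.995), and KIF20A was furthest from it (0.645). The profile includes the gene compared with it, which raises each of these r values. Outside the 10, the genes most like that profile over the same 6 libraries were CYS1, WIPF1, MPP1 (a membrane scaffold gene), CKAP5 and CD37, with r from 0.998 to 0.999. CYS1 had few normalized counts, 68.6 and 50 in siControl and 5.7 and 8.8 under siADAR1 #2. With siADAR1 #1, CKAP5 (log2FC -0.36, adjusted p-value 0.0534, limma) and CD37 (-0.53, 0.149) were not called. CKAP5 is also in the list, given below, of genes that work beside the kinesins. CKAP5, a microtubule polymerase of the spindle, had 32550 and 29838 normalized counts in the siControl libraries, 23691 and 24785 under siADAR1 #1, and 18075 and 19977 under siADAR1 #2. At r above 0.99 stood 83 of the 20858 genes, among them KIF20B, KIF14, KIF11 and KIF4A.

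Over all 20858 genes tested, 10.6% were downregulated with siADAR1 #1 and 15.5% with siADAR1 #2, and 1290 and 2309 were upregulated. These are the background for the gene lists that follow. Of 5 tested among 6 other mitotic kinesins, 1 was downregulated with siADAR1 #1 and 3 with siADAR1 #2 (median log2FC -0.19 and -0.62). CENPE, which links chromosomes to microtubule plus ends, fell with both (log2FC -0.87 and -1.41, adjusted p-values 0.00516 and 0.000400). KIF22, a chromokinesin, and KIFC1, which clusters spindle poles, fell with siADAR1 #2 (log2FC -0.80 and -0.62) and were at -0.18 and -0.19 with siADAR1 #1. Among 25 tested kinesins of transport, cilia and other interphase roles, 4 were downregulated and 2 upregulated with siADAR1 #1, and 3 and 7 with siADAR1 #2, with medians of -0.05 and 0.0013. Over the alternatives, 1 to 6 and 4 to 11 genes of this list were called. KIF13B fell with both (log2FC -1.44 and -0.98), and KIF17 rose with both (1.56 and 1.62). STARD9 fell with siADAR1 #1 (-0.53) but rose with siADAR1 #2 (0.61), a difference of 1.14 between the siRNAs (adjusted p-value 0.000653, limma). Whether STARD9 belongs in this list or among the mitotic kinesins was not checked. Of 5 kinesin light chain and adaptor genes, KLC1 rose with both (log2FC 0.70 and 0.54), and KLC2 fell with siADAR1 #1 (-0.91) and was at -0.45 with siADAR1 #2. The other 3 were not called, among them KLC4 (0.28 and 0.35). Dynein and dynactin, the motor that walks the other way, had 2 genes downregulated and 3 upregulated of 21 with siADAR1 #1 and 6 and 2 with siADAR1 #2 (medians 0.02 and -0.20), and the alternatives called 1 to 5 and 3 to 9 in all. NDE1, a dynein regulator at kinetochores, fell with both (log2FC -0.91 and -0.65), DCTN4 rose with both (0.57 and 0.54), and DYNC1LI2 fell with siADAR1 #2 (-0.57) and was at 0.33 with siADAR1 #1.

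**Figure D5:**
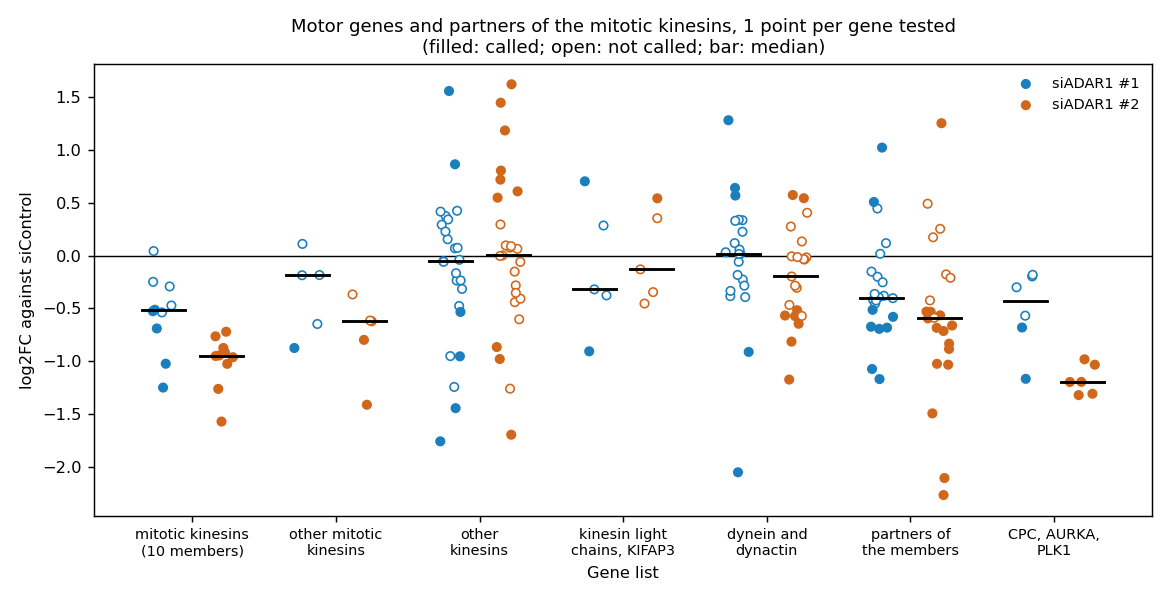
log2FC against siControl for each gene tested in 7 lists, with siADAR1 #1 and siADAR1 #2 side by side, filled where called, and a bar at the median. The 10 mitotic kinesins have medians of -0.52 and -0.95, and the kinesins of other roles spread on both sides of 0 with medians of -0.05 and 0.0013.

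Of all genes tested, 10.6% were downregulated with siADAR1 #1 and 15.5% with siADAR1 #2. Of 22 genes whose products bind, regulate or work beside the 10 kinesins, 7 were downregulated and 2 upregulated with siADAR1 #1 (median -0.40). With siADAR1 #2, 14 of the 22 were downregulated and 1 upregulated (median -0.59). The alternatives called 0 to 10 of them with siADAR1 #1, 0 of them without siControl replicate 1, 4 without siControl replicate 2 and 4 without siADAR1 #1 replicate 1, and 11 to 17 with siADAR1 #2. MKI67, the proliferation marker that coats mitotic chromosomes, had 65396 and 68779 normalized counts in the siControl libraries, 28820 and 35235 under siADAR1 #1, and 13165 and 18449 under siADAR1 #2, and so fell in the same order as most of the kinesins (log2FC -1.07 and -2.11, adjusted p-values 0.00730 and 0.000351). ANLN, a scaffold of the cleavage furrow, fell with both (log2FC -0.68 and -0.57). NEK7, a mitotic kinase of the pathway that recruits KIF11 to the spindle, rose with both (log2FC 1.02 and 1.25). NEK9 and NEK6 of the same list, also named after their values were seen, did not follow it. NEK9 fell with both (log2FC -0.69 and -0.53), and NEK6 was called with neither (-0.42 and 0.49). Chosen after their values were seen, PRC1, the midzone partner of KIF4A, had 76.4% and 21.0% of its siControl level with siADAR1 #1 and siADAR1 #2, and RACGAP1, the partner of KIF23 in centralspindlin, had 89.8% and 55.9%. For both, the log2FC was called with siADAR1 #2 (-2.27 and -0.83) and not with siADAR1 #1 (-0.38 and -0.15). The value of PRC1 with siADAR1 #2 was the lowest of the 22. CIT, which works with KIF14, was called with neither siRNA (-0.39 and -0.42). The chromosomal passenger complex, the cargo of KIF20A, was tested together with AURKA and PLK1. Of these 6 genes, 2 were downregulated with siADAR1 #1 and 6 with siADAR1 #2 (medians -0.43 and -1.20), and 0 to 3 and 5 to 6 in the alternatives. PLK1 fell to a similar extent with both (log2FC -1.17 and -1.20), AURKB fell with both (-0.68 and -1.20), and BIRC5 fell with siADAR1 #2 (-0.98) and was at -0.57 with siADAR1 #1 (adjusted p-value 0.0762).

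Some exons of the kinesins are shared with genes on the opposite strand, and whether the counting used the strand is not given in the sources used here. KIF20A, with 1865 to 5529 reads a library, shares 132 of 3852 annotated exon bases with BRD8 (2661 to 4533 reads) and 74 with CDC23 (1625 to 6763 reads). KIF4A shares 77 of 4573 with PDZD11 (946 to 1959 reads), and KIF23 shares 231 of 6576 with KIF23-AS1, which had at most 121 reads. KIF2C shares 175 of 3646 with an unnamed gene of at most 65 reads. The part of these reads in the values was not tested.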

How the data were processed

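Poly(A)+ libraries of Cal62 cells (KAPA mRNA HyperPrep kit, NextSeq 500) were processed by the authors in bcbio-nextgen, with FastQC, Atropos trimming, featureCounts, Salmon and DESeq2 normalization, for which Salmon-based gene counts were preferred. GRCh38 is the build in the submitters' processing notes, and tool versions are not given in the sources used here. The authors deposited log2 values, whose form in the table, with the same lowest value in every library, matches a variance-stabilizing transformation of normalized gene counts. The labels name 1 sample per condition and the table has 2 numbered columns for each, taken as the 2 biological replicates of the study's methods. P-values thus measure the spread between these libraries. Undoing the transformation from its value at a count of 0 gave whole reads for 100% of values (tolerance 0.1), and 0 columns were unused. Genes with a mean log2 value of at least 3.32 (7.62 normalized counts) were tested across all genes with limma 3.58.1 in R 4.3.3 (eBayes with trend, two-sided, Benjamini-Hochberg adjustment), in a fit with 3 groups and 3 residual degrees of freedom, or with the siADAR1 libraries as 1 group. Symbols and exon lengths came from GENCODE release 44. The members and the lists were chosen with earlier results of these data known. Named genes are the 10 members, ADAR, at most 3 genes of each list with the smallest larger adjusted p-value of the 2 siRNAs, and the 5 genes most correlated with the members' mean profile. Markers of the cell line and genes that share reads with a member were named as checks. PRC1, RACGAP1, NEK6, NEK9 and CIT were named after their values were seen. Alternatives were other filters, scalings, variance models, sample sets, voom on recovered reads, thinned reads, a replicate block and each library left out. Leaving out a library leaves 1 sample in its condition, whose spread is then assumed to be that of the others. The leukocyte, endothelial, fibroblast, epithelial and thyroid lists served to check the cell line. The summed level of the thyroid list is not reported here.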

Additional observations from a re-analysis of the deposited data

Results flagged for a closer look

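The effect of the siRNAs differed by the direct test between them (adjusted p-value under 0.05, limma) for 8 of the 10 kinesins and for 36.4% of all genes tested. On the log2 scale, siADAR1 #2 minus siADAR1 #1, the difference was -0.73 for KIF4A, -0.88 for KIF11, -0.47 for KIF14, -0.78 for KIF18A, -0.40 for KIF20B, -0.43 for KIF23 and -0.99 for KIF2C. KIF20A alone had the opposite sign, 0.49.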

How the results depend on the processing

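The number of kinesins called with siADAR1 #1, 5 as reported, was 3 without a filter on low values, 3 with libraries centred on their medians, 3 after quantile normalization and 1 with eBayes without a trend, and it lay between 1 and 6 with single libraries left out. Leaving out single libraries gave 9 to 10 with siADAR1 #2 and 4 to 6 for the difference between the siRNAs, which was 8 with centred libraries. With the siADAR1 libraries as 1 group it was 0 whichever library was left out, and 9 when both siRNA effects were averaged in the model of 3 conditions. The log2 difference between the siRNAs changed sign for KIF15 without siADAR1 #1 replicate 1 (-0.00040) and without siADAR1 #2 replicate 2 (-0.0535), and for ADAR in the same fits (-0.0252 and -0.0540). With single libraries left out these differences ranged from -0.0535 to 0.352 for KIF15 and from -0.0540 to 0.761 for ADAR. Over all genes, the calls with siADAR1 #1 fell from 3502 to 1347 without a trend, 392 without siControl replicate 1, 1248 without siControl replicate 2 and 1412 without siADAR1 #1 replicate 1, and those with siADAR1 #2 from 5541 to 3150 without siControl replicate 1 and 3242 without siADAR1 #2 replicate 1. With the siADAR1 libraries as 1 group they rose from 0 to 3585 with the averaged effects. The all-gene calls with siADAR1 #1 were 2685 without a filter on low values, 3657 with centred libraries and 3544 after quantile normalization. Between the siRNAs they were 6838 as reported and 7128 with centred libraries. Counts of called genes in the other lists moved by more than 1.5 times with siADAR1 #1 mainly without siControl replicate 1, siControl replicate 2 or siADAR1 #1 replicate 1 and without a trend. For interphase kinesins they moved with siADAR1 #2 from 10 to 5 without either siControl library and 4 without siADAR1 #2 replicate 1, and for dynein and dynactin from 8 to 4 without siControl replicate 1, 3 without siADAR1 #2 replicate 1 and 4 after quantile normalization. Libraries of the same number deviated together weakly (correlations 0.106, 0.110 and 0.162). A replicate block for this possible pairing called 6 kinesins with siADAR1 #1, 10 with siADAR1 #2, 4 between the siRNAs and 0 with the siADAR1 libraries as 1 group. Where no library was left out, the cause of these changes was not tested. With reads thinned to the smallest library total, 4 kinesins and 3433 of all genes were called with siADAR1 #1. KIF20B then lost its call (-0.47, adjusted p-value 0.0372, limma).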
